A study of Mus musculus with 24 samples.

Results

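The 10 genes described here encode molecules by which leukocytes hold on to and enter a vessel wall: *Vcam1*, *Icam1*, *Icam2*, *Selp*, *Itga4*, *Itgal*, *Itgb2*, *Cxcl12*, *Cxcr4* and *Ccl5*. They were chosen by name from the 32288 genes listed in the files, all 10 were found, and their unique molecular identifiers (UMIs, 1 per captured RNA molecule) were read in nuclei of the brain vasculature and its immune cells. Nuclei came from the deep brain, the region prone to vessel calcification, and from the cortex, which is not, of 12 mice of the strain B6.Pdgfbtm3Cbet. The 6 mutants carried 2 ret alleles of *Pdgfb* (ret/ret) and the 6 controls carried 1 (ret/wt), so the controls are not wild type. The ret allele, present in all cells of the animal, encodes a PDGF-B without the motif that keeps it near the endothelium. Male sex was given for control 6 alone, the other 11 mice being female. Ages by the labels lay between 5 months and 5 months 18 days for replicates 1 to 3 and between 4 months 7 days and 4 months 24 days for replicates 4 to 6. The mice were perfused with PBS and heparin before the brain was dissected, and a nucleus inside a vessel cannot be told apart here from one that had left it.

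Leukocytes leave the blood in steps. Selectins such as P-selectin (*Selp*) slow them, chemokines presented on the wall activate their integrins, and the integrins then bind immunoglobulin-type adhesion molecules on the endothelium. VCAM-1 (*Vcam1*) is the ligand of the integrin α4β1, whose α chain is *Itga4*, and ICAM-1 and ICAM-2 (*Icam1*, *Icam2*) are ligands of LFA-1, the pair of *Itgal* and *Itgb2*. In the brain the capillary endothelium normally carries little VCAM-1, the chemokine CXCL12 is made by vessels and holds cells that bear its receptor *Cxcr4*, and *Ccl5* is a chemokine made by activated T cells.

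The 24 libraries, 1 per mouse and region, held between 64736053 and 96459036 UMIs in the deep brain. In the cortex 9 libraries held 23625232 to 49807261 and 3 held 71799624 to 95605387, these being mutants 5 and 6 and control 5. After limits on genes and mitochondrial share, 124958 nuclei of the deep brain and 79967 of the cortex were kept. Median UMIs per kept nucleus ran from 3547 to 7314.5 in deep brain libraries and from 804 to 8054 in cortical ones. Neurons, oligodendrocytes and astrocytes were 15207, 4194 and 1096 of 47714 kept nuclei in the mutant cortex. In the mutant deep brain they were 35131, 14606 and 6380 of 64604. In controls they were 13255, 2778 and 963 of 32253 against 32257, 15635 and 5049 of 60354. A larger part of cortical nuclei had no named class. Any pair of libraries shared a median of 98 barcodes and at most 220, which was up to 1.985% of the smaller library. Clusters named from marker lists held 765 endothelial, 209 mural, 1858 fibroblast, 3267 microglial, 428 macrophage-like and 167 T cell-like nuclei. All 12 endothelial, 11 mural, 11 fibroblast, 10 microglial, 8 macrophage and 12 T cell markers stood over 2-fold higher in their class than in the remaining nuclei. The same lists named the clusters, so this is no independent check of the names. The vessel classes were thin: mutants gave 307 endothelial nuclei in the deep brain and controls 324, against 68 and 66 in the cortex, and mural nuclei numbered 37 and 140 in the deep brain and 3 and 29 in the cortex. The mural class leaves out nuclei led by *Acta2*, *Myh11* and *Tagln*, genes of smooth muscle, which shared an unnamed cluster with nuclei led by *Tmem212* and *Dnah12* and at resolution 0.8 formed a mural cluster of their own with 43 nuclei of each genotype in the deep brain. Levels are given as CPM, the UMIs of a gene in the nuclei of a class per 1000000 UMIs of these nuclei, so that they depend on gene length and are compared for 1 gene at a time.

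Each gene had a class in which it stood highest over all 24 libraries. Endothelial nuclei held the highest levels of *Vcam1* (318 CPM, 751 UMIs), *Icam2* (149 CPM, 351 UMIs) and *Cxcl12* (1590.4 CPM, 3751 UMIs). *Icam1* was highest in microglia (73.5 CPM, 556 UMIs), where *Itgb2* was also plentiful (132 CPM, 997 UMIs). The T cell-like nuclei led for *Itga4* (2075 CPM, 592 UMIs), *Itgal* (421 CPM, 120 UMIs), *Itgb2* (284 CPM, 81 UMIs) and *Ccl5* (596 CPM, 170 UMIs). By level, then, the ligands peaked in endothelium and microglia and the integrin chains in T cell-like nuclei. By number of UMIs the order was another for some genes: *Vcam1* gave more UMIs in the many astrocytes (68.5 CPM, 4189 UMIs) than in endothelial nuclei, and a low level of *Itga4* in neurons (12.7 CPM) gave 14160 UMIs because neurons were so many. *Selp* and *Cxcr4* were sparse in vascular and immune nuclei, with 7 UMIs of *Selp* in all endothelial nuclei and 7 UMIs of *Cxcr4* in all T cell-like nuclei, and *Cxcr4* gave 96 UMIs in astrocytes (1.57 CPM) and 124 in neurons (0.111 CPM).

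**Figure D1:**
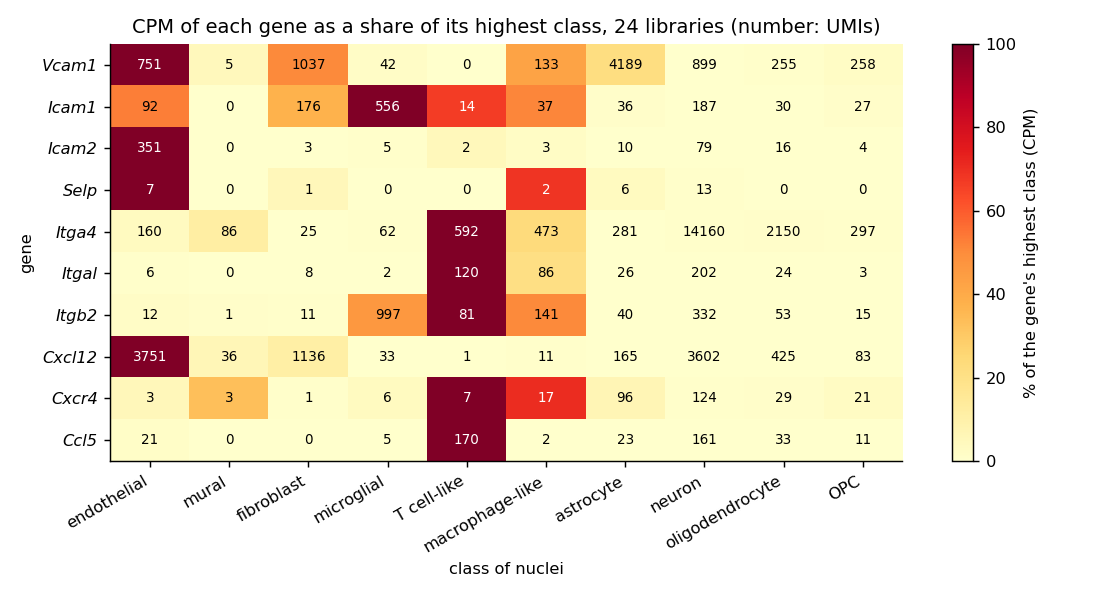
Rows are the 10 genes and columns 10 classes of nuclei, summed over all 24 libraries. The colour gives the CPM of a gene in a class as a percentage of its CPM in the class where it is highest, and the number in each field is the count of UMIs. *Vcam1*, *Icam2* and *Cxcl12* peak in endothelial nuclei, *Icam1* in microglia, and *Itga4*, *Itgal*, *Itgb2* and *Ccl5* in T cell-like nuclei, and the fields of *Selp* and *Cxcr4* rest on few UMIs.

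*Vcam1*, at chr3:116109949-116129688 on the minus strand (GRCm38), encodes the endothelial ligand of α4 integrins. Its level in endothelial nuclei of the deep brain ran from 93.2 to 627 CPM in the 6 mutants (median 361) and from 71.4 to 288 CPM in the 6 controls (median 159.9). Mutants 2 to 6 lay above every control, and mutant 1, with 93.2 CPM from 9 UMIs, lay among them. The means were 396 ± 198 and 165 ± 84.7 CPM (SD, n = 6 each), a log2 difference of 1.26 ± 0.34 (SE) with an adjusted p of 0.0598 in edgeR's quasi-likelihood test over 3437 genes (unadjusted p = 0.0011). At the threshold of 0.05 the test called 57 of these genes, which is 1.66%, and 0 of the 3 members that passed its filter (*Vcam1*, *Icam2* and *Cxcl12*). An unadjusted p under 0.05 was reached by 2 of the 3 and by 11% of all genes. The result for *Vcam1* sits at that threshold: over 19 alternative settings the difference stayed between 1.08 and 1.48 and the adjusted p between 2.8e-06 and 0.153, under 0.05 in 6 of them. The 6 were DESeq2 (0.0459), omission of the count filter (2.8e-06), the replicate number as a block (0.005), removal of called doublets (0.0359), leaving out mutant 1 (0.00592) and leaving out control 3 (0.0139). The labels pair no mutant with a control by that number. Equal numbers correlated at only -0.22 to 0.16 in these nuclei, so the block rests on a pairing that is not shown.

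More endothelial nuclei held a UMI of *Vcam1* in mutants. Of 307 mutant nuclei of the deep brain 87 did, a share of 28.3% (95% exact binomial interval 23.4 to 33.7%, for counting error only), against 34 of 324 in controls, a share of 10.5% (7.38 to 14.4%). With each nucleus thinned to 1000 UMIs, which leaves out 33 and 45 shallower nuclei, the shares were 18.6% and 7.31%. Oligodendrocytes, which should lack the gene, held a UMI in 0.65% of nuclei and in 0.242% after thinning, with a median of 2671 UMIs per nucleus against 2102 in endothelial nuclei. The endothelial shares of both genotypes lay above that of oligodendrocytes.

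The summed levels of other marker lists in the same endothelial nuclei are given beside this result, and neither their differences nor their part in it was tested. The 6 venous markers, all detected, summed to 1243 to 2017 CPM in mutants and 543 to 1286 CPM in controls. The 7 arterial markers summed to 691 to 1351 CPM and 268 to 1286 CPM, whereas the 6 capillary markers summed to 2103 to 3513 CPM and 3155 to 5162 CPM. The 12 endothelial markers themselves gave 17931 to 22845 CPM in mutants and 17175 to 22082 CPM in controls. Markers of mural cells, 11 of 11 detected, gave 1723 to 3356 CPM in mutants and 3098 to 5209 CPM in controls. Markers of fibroblasts, the other vessel class with *Vcam1*, had 10 of 11 detected (*Slc47a1* was at 0) and gave 191 to 487 CPM and 71 to 516 CPM. Astrocyte markers, 7 of 7 detected, gave 357 to 1174 CPM and 835 to 1289 CPM. Choroid plexus markers gave up to 249 CPM in mutants and up to 3972 CPM in controls.

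The nuclei that held a UMI of *Vcam1* also held more venous and arterial RNA in both genotypes. In mutants of the deep brain the venous markers summed to 2176 CPM over the 87 nuclei with a *Vcam1* UMI and to 878 CPM over the 220 without, and in controls to 2010.0 CPM over 34 nuclei and 581 CPM over 290. Arterial markers gave 1201 and 793 CPM in mutants and 1819 and 336 CPM in controls. Capillary markers went the other way, with 2614 and 3039 CPM in mutants and 1897 and 4423 CPM in controls. These are sums over nuclei of 6 libraries, and nuclei with a *Vcam1* UMI were deeper, with a median of 3157 UMIs against 1923.5 in mutants.

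**Figure D2:**
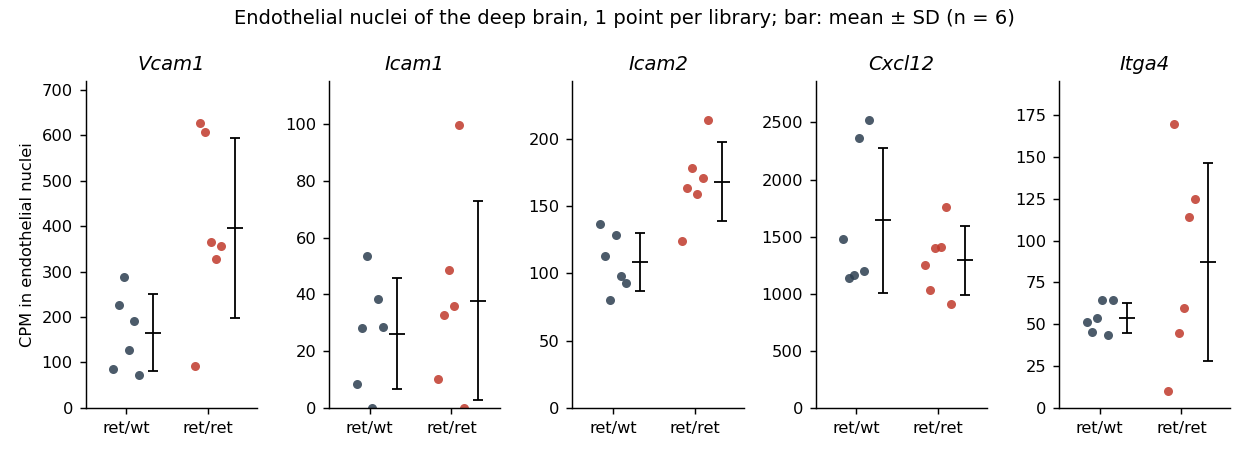
Levels of 5 genes in endothelial nuclei of the deep brain, in CPM on linear axes that start at 0, with 1 point for each library and, beside the points, the mean and SD of the 6 libraries of a genotype. For *Vcam1* 5 of 6 mutants lie above all controls, for *Icam2* 5 of 6, and the points of *Icam1*, *Cxcl12* and *Itga4* overlap.

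In the cortex few libraries held enough endothelial nuclei, so libraries with at least 5 were fitted, a limit chosen after the counts of nuclei had been seen (3 mutants and 5 controls). The UMIs of *Vcam1* in endothelial nuclei of mutants 1 to 6 were 14, 15, 0, 2, 65 and 65, and those of controls 1 to 6 were 2, 0, 18, 0, 5 and 4. Summed over libraries this was 161 UMIs (535 CPM) in mutants and 29 UMIs (108 CPM) in controls. edgeR gave a log2 difference of 2.13 ± 0.59 (SE) with an adjusted p of 0.0741, where 29 of 1323 genes, or 2.19%, were called. Over 14 alternatives the difference lay between 1.72 and 3.07, with an adjusted p from 0.000993 to 0.283 that was under 0.05 in 3. Here too resolution 0.8 repeats the main fit. A UMI of *Vcam1* was found in 34 of 68 mutant nuclei (50%, exact interval 37.6 to 62.4%) and in 6 of 66 control nuclei (9.09%, 3.41 to 18.7%). After thinning these shares were 27.5% and 5.43%. Most of the mutant UMIs came from mutants 5 and 6, which are among the 3 deepest cortical libraries. The interaction of genotype and region for *Vcam1* in endothelial nuclei was -0.95 ± 0.70 with an adjusted p of 0.764 in edgeR (2 of 4168 genes called, 0.048%), which does not show that the regions were alike.

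*Icam2*, which encodes a constitutive endothelial ligand of LFA-1, lies at chr11:106377656-106388075 on the minus strand. Endothelial nuclei of the deep brain held 124 to 214 CPM in mutants (median 167) and 80.4 to 137 CPM in controls (median 106), and 5 of 6 mutants lay above every control. The means of 168 ± 29.2 and 108 ± 21.8 CPM (SD, n = 6) gave a log2 difference of 0.64 ± 0.20 (SE), with an adjusted p of 0.125 in edgeR (unadjusted p = 0.00393), and none of 19 alternatives brought the adjusted p below 0.0932. A UMI of *Icam2* was found in 32.9% of mutant and 19.8% of control endothelial nuclei, or 13.1% and 9.03% after thinning, against 0.043% of oligodendrocytes. In the cortex its log2 difference was 0.40 ± 0.36 with an adjusted p of 0.647 in edgeR.

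*Icam1*, the inducible ligand of LFA-1, lies at chr9:21015985-21028817 on the plus strand and was too sparse in endothelial nuclei to be tested, with 41 UMIs in mutants and 25 in controls of the deep brain. Per library this was 0 to 99.8 CPM in mutants (median 34.2) and 0 to 53.6 CPM in controls (median 28.4), and the ranges overlapped. Its promoter is shown because *Icam1* alone among the 5 genes found in the RefSeq promoter table (*Icam1*, *Selp*, *Itga4*, *Cxcl12* and *Cxcr4*) holds both motifs searched, GGAAATTCC of the NF-κB kind and TTCCNGGAA of the STAT kind. Both strands were read over the 250 bases before the RefSeq start, at chr9:21015690-21015939 on the plus strand (GRCm38.p6), and the matches are in capitals.
Icam1: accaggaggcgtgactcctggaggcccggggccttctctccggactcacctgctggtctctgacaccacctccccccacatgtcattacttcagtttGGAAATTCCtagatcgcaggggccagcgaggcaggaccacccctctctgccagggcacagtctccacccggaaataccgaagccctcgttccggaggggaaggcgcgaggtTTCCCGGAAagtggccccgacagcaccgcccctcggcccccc
GGAAATTCC lies at bases -153 to -145 before the start and occurs in 94 of 32851 promoters of that length (0.286%), and TTCCNGGAA lies at bases -42 to -34 and occurs in 300 promoters (0.913%). The 2 matches do not overlap. They are matches of letters, and no binding was measured in these data.

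*Selp*, which encodes P-selectin and lies at chr1:164115264-164150026 on the plus strand, gave 6 UMIs in mutant endothelial nuclei of the deep brain and 0 in controls. The 6 UMIs came from 3 nuclei of mutants 2 and 3, and no other vascular or immune class of the deep brain held a UMI. The 0 UMIs of controls allow up to 3.55 CPM at 3 counts over the summed libraries, against 6.35 CPM in the summed mutants. In the sum of all nuclei of the deep brain each mutant library held 2 to 6 UMIs of *Selp* (median 3) and each control library 0 or 1 (median 0), 21 UMIs against 2, so the groups did not overlap. The gene was below the filter of the fit. Without the filter edgeR gave it an adjusted p of 0.0377. That p rests on 2 UMIs in controls, for a gene the planned filter removed, and is no independent support. Of the 21 UMIs 10 lay in nuclei classed as neurons and 5 in astrocytes.

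In astrocytes *Vcam1* went the opposite way. Astrocytes of the deep brain held 41.1 to 71.2 CPM in mutants (median 48.7) and 76.6 to 94.7 CPM in controls (median 84.7). Every mutant lay below every control, as did 0.561% of the 24777 genes with a UMI in these nuclei. *Vcam1* fell by 0.76 on the log2 scale (SE 0.12), with an adjusted p of 0.00413 in edgeR over 13584 genes, of which 472 or 3.47% were called, 1.56% as lower. The call held in all 16 alternatives run for it, with an adjusted p from 3.4e-06 to 0.0129. The fit in astrocytes was not planned and was added after the levels had been seen, so its p-values are no independent support. The share of astrocytes with a UMI was 17.3% in 6380 mutant nuclei and 29.5% in 5049 control nuclei, and 5.78% and 9.67% after thinning to 1000 UMIs. Beside it, the 7 astrocyte markers summed to 14992 to 17222 CPM in mutants and 16357 to 23024 CPM in controls, and the 12 endothelial markers to no more than 21.9 CPM.

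The genotype difference of *Vcam1* was compared between classes mouse by mouse. The contrast was chosen after the values had been seen, so that its p restates them and is no independent support. The log2 level in endothelial nuclei less that in astrocytes of the same library was 1.21 to 3.93 in mutants (mean 2.78 ± 0.95, SD, n = 6) and -0.07 to 1.92 in controls (mean 0.83 ± 0.80). The difference of 1.95 had p = 0.00866 in a two-sided exact permutation test. Against fibroblasts the same measure differed by 0.91 (p = 0.184, exact permutation test), and after Benjamini-Hochberg adjustment over these 2 contrasts the exact permutation p-values were 0.0173 and 0.184.

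In fibroblasts, the cells of the vessel sheath and meninges, *Vcam1* was at 111 to 224 CPM in mutants (median 146) and 53.3 to 247 CPM in controls (median 134) of the deep brain, with overlapping ranges. The log2 difference was 0.24 ± 0.23 (SE) with an adjusted p of 0.980 in edgeR, which called 0 of 7652 genes (0%), 427 (5.58%) at an unadjusted p under 0.05 and 2 with DESeq2. The gene was not spread evenly over fibroblasts. The fibroblast cluster led by *Slc7a11*, *Dcn* and *Cemip* held 1010 UMIs of *Vcam1* in 988 nuclei (351 CPM), and the cluster led by *Adamtsl3* and *Slc47a1* held 8 UMIs in 601 nuclei (3.33 CPM). *Cxcl12* shared this pattern, with 338 and 40.7 CPM. Within the first cluster *Vcam1* was at 265 to 459 CPM in mutants and 136 to 426 CPM in controls of the deep brain. In cortical fibroblasts (4 mutant and 6 control libraries with at least 10 nuclei) *Vcam1* was at 89.7 to 625 CPM and 65.2 to 439 CPM, a log2 difference of 0.26 ± 0.51 with an adjusted p of 0.970 in edgeR (0 of 2800 genes called, 0%, 146 (5.21%) at an unadjusted p under 0.05 and 1 with DESeq2).

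Macrophage-like nuclei held 51 UMIs of *Vcam1* in mutants (0 to 159.8 CPM per library) and 24 in controls (20.7 to 287 CPM in the 5 libraries with at least 10 such nuclei, and 0 CPM in control 5 with 9) of the deep brain. Neurons held 0.660 to 1.23 CPM in mutants and 0.590 to 1.15 CPM in controls, a log2 difference of -0.04 ± 0.19 with an adjusted p of 0.961 in edgeR. Mural nuclei held 5 in all 4 groups and T cell-like nuclei held 0 of 167, which allows a share of nuclei with a UMI of up to 1.80% at 3 counts and sets no limit on nuclei that express the gene. Over all nuclei of the deep brain *Vcam1* was at 5.53 to 9.55 CPM in mutants (median 6.54) and 5.45 to 8.14 CPM in controls (median 7.01), a log2 difference of -0.04 ± 0.13 with an adjusted p of 0.943 in edgeR. Endothelial nuclei held 12.9% of the 3191 mutant UMIs and 4.44% of the 3337 control UMIs, while astrocytes held 41.3% and 56.4%.

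**Figure D3:**
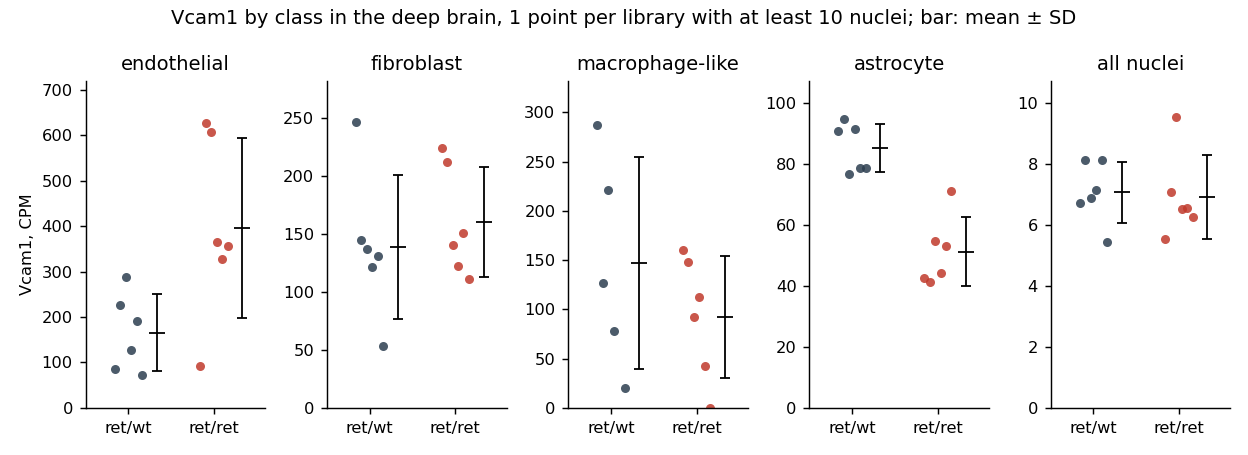
Level of *Vcam1* in 4 classes and in all nuclei of the deep brain, in CPM on linear axes that start at 0 and differ between panels, with 1 point for each library of at least 10 nuclei and the mean and SD beside the points. Mutants are mostly higher in endothelial nuclei, lower without overlap in astrocytes, and overlap with controls in fibroblasts, macrophage-like nuclei and all nuclei.

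The other ligand measured in fibroblasts, *Icam1*, was at 14.7 to 66.7 CPM in mutants (median 28.5) and 9.14 to 29.8 CPM in controls (median 19.7). The ranges overlapped, and the log2 difference of 0.81 ± 0.36 (SE) had an adjusted p of 0.869 in edgeR (unadjusted p = 0.0355). *Icam1* in microglia ran from 59.0 to 92.0 CPM in mutants (median 72.4) and from 46.9 to 85.9 CPM in controls (median 59.8) of the deep brain, a log2 difference of 0.18 ± 0.18 with an adjusted p of 0.970 in edgeR, where 9 of 7226 genes (0.125%) and 0 of the 2 tested members (*Icam1* and *Itgb2*) were called. In cortical microglia it was at 38.4 to 89.5 CPM and 43.9 to 124 CPM, a difference of -0.37 ± 0.25 with an adjusted p of 0.926 in edgeR (7 of 2758 genes called, 0.254%). The interaction of genotype and region was 0.56 ± 0.29 with an unadjusted p of 0.0622 and an adjusted p of 1.00 in edgeR, which called 0 of 8053 genes (0%), 274 (3.4%) at an unadjusted p under 0.05 and 0 with DESeq2.

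*Itga4*, at chr2:79255426-79333123 on the plus strand, encodes the α4 chain that binds VCAM-1. It was the member most often read in T cell-like nuclei, 136 of 167 of which held a UMI (81.4%, exact interval 74.7 to 87.0%), against 4.95% of oligodendrocytes. Its summed level in T cell-like nuclei was 2036 CPM (290 UMIs) in mutants and 1474 CPM (80 UMIs) in controls of the deep brain, and 2558 CPM (193 UMIs) and 2224 CPM (29 UMIs) in the cortex. No test was made of levels within these nuclei, because no control library held 10 of them. Its partner *Itgb1*, the β1 chain, was at 1241 CPM in T cell-like nuclei and 78.0 CPM in oligodendrocytes, and its other partner *Itgb7* was at 266 and 0.192 CPM.

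Macrophage-like nuclei held the next highest level of *Itga4*, 177 to 705 CPM in mutants (median 383) and 372 to 989 CPM in 5 control libraries (median 405) of the deep brain. edgeR gave a log2 difference of -0.35 ± 0.32 with an adjusted p of 0.774 (24 of 1726 genes called, 1.39%). The difference was -0.61 ± 0.25 at resolution 0.8 (adjusted p = 0.326), where a small cluster described below was separate, and -0.20 ± 0.28 at resolution 0.2 (adjusted p = 0.883), within adjusted p-values of 0.326 to 0.995 over 18 alternatives. Mural nuclei of controls held 135 to 362 CPM in the deep brain (median 239, 58 UMIs), and 34.3% of 140 nuclei had a UMI. Mutants had 37 mural nuclei with 8 UMIs (112 CPM), 5 of these UMIs from mutant 3. Of the mutant nuclei 18.9% had a UMI, 10.0% after thinning against 24.6% in controls. With libraries of at least 5 nuclei edgeR tested 439 genes in mural nuclei, called 1 (0.228%), and none of the 10 genes passed its filter. Endothelial nuclei held 76 UMIs of *Itga4* in mutants (10.4 to 169.7 CPM per library) and 44 in controls (43.7 to 64.3 CPM), with overlapping ranges. Neurons gave most of the UMIs of *Itga4*, 60.3% in mutants and 74.5% in controls, at 8.20 and 11.8 CPM, and their log2 difference was -0.57 ± 0.26 with an adjusted p of 0.393 in edgeR (58 of 19965 genes called, 0.291%). The gene overlaps *Cerkl* on the opposite strand.

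*Itgal* (chr7:127296260-127335138, plus strand) and *Itgb2* (chr10:77530252-77565708, plus strand) encode the chains of LFA-1, and *Itgb2* also pairs with the α chains of myeloid cells. Of the 167 T cell-like nuclei 87 held a UMI of *Itgal* (52.1%) and 56 one of *Itgb2* (33.5%), against 0.0618% and 0.14% of oligodendrocytes. In mutants of the deep brain these nuclei held 28.4% of all UMIs of *Itgal* while making up 0.142% of the kept nuclei, and macrophage-like nuclei held 21.8%. In controls the shares were 24.1% and 12.1%, and control 1 gave 10 of the macrophage-like UMIs. Neurons held *Itgal* UMIs too, in 41 nuclei of mutants (0.117% of neurons) and 54 of controls (0.167%). In controls neurons therefore held at least 54 UMIs, more than the 28 of T cell-like nuclei. At resolution 0.8, looked at after the values had been seen, a small cluster led by *Adgre4*, *Gpr141* and *Fgr* separated from the macrophage-like nuclei. It held 35 of their 43 UMIs of *Itgal* in mutants (32 nuclei) and 11 of 14 in controls (5 nuclei) of the deep brain, while the large cluster led by *F13a1* and *Mrc1* held 8 and 3. The naming rule gave this cluster the granulocyte name, with 80% of that list over 2-fold higher in the pool and 100% against all nuclei. *Itgal* was among its leading genes. The name is not relied on here, and the share of *Itgal* in macrophage-like nuclei rests on this cluster. Microglia held more UMIs of *Itgb2* than any other named class, 35.5% in mutants and 38.0% in controls. These shares do not count the microglial nuclei left out for a UMI of genes of other cells, 1500 of 4767 over all libraries.

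Over all nuclei of the deep brain both chains of LFA-1 stood higher in every mutant than in every control. *Itgal* was at 0.305 to 0.646 CPM in mutants (median 0.397) and 0.153 to 0.299 CPM in controls (median 0.257). The log2 difference of 0.81 ± 0.22 (SE) had an adjusted p of 0.0843 in edgeR. *Itgb2* was at 1.80 to 2.45 CPM in mutants (median 2.07) and 1.21 to 1.75 CPM in controls (median 1.57). Its log2 difference of 0.47 ± 0.11 had an adjusted p of 0.0504 in edgeR. *Selp* was the third of the 10 genes whose groups did not overlap, all 3 with mutants above, as did 0.836% of the 28964 genes with a UMI. edgeR tested 21040 genes, called 324 (1.54%) and called 0 of the 9 members that passed its filter, and 5 of the 9 had an unadjusted p under 0.05 (*Itgal*, *Itgb2*, *Icam1*, *Icam2* and *Ccl5*) where 14% of all genes did. In such sums more nuclei of a type and more RNA per nucleus cannot be told apart. Macrophage-like nuclei numbered 34 to 55 in the mutant and 9 to 26 in the control libraries (245 and 95 in all), and T cell-like nuclei 11 to 21 and 0 to 9, both without overlap. The part of these numbers in the result was not tested. DESeq2, which called 960 genes where edgeR called 324, called *Itgal* (adjusted p = 0.0421), *Itgb2* (0.00351) and *Icam1* (0.0106). The adjusted p of *Itgb2* was also 0.0474 without control 1.

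Within microglia *Itgb2* did not stand apart. It was at 92.3 to 187 CPM in mutants (median 121) and 84.1 to 177 CPM in controls (median 114) of the deep brain, a log2 difference of 0.12 ± 0.17 with an adjusted p of 0.979 in edgeR. In cortical microglia it was at 118 to 192 CPM and 90.0 to 204 CPM, a difference of -0.23 ± 0.19 with an adjusted p of 0.982 in edgeR. In macrophage-like nuclei of the deep brain it was at 74.0 to 195 CPM in mutants and 36.9 to 234 CPM in controls, a difference of 0.19 ± 0.40 with an adjusted p of 0.913 in edgeR. The ranges overlapped in each of these classes.

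**Figure D4:**
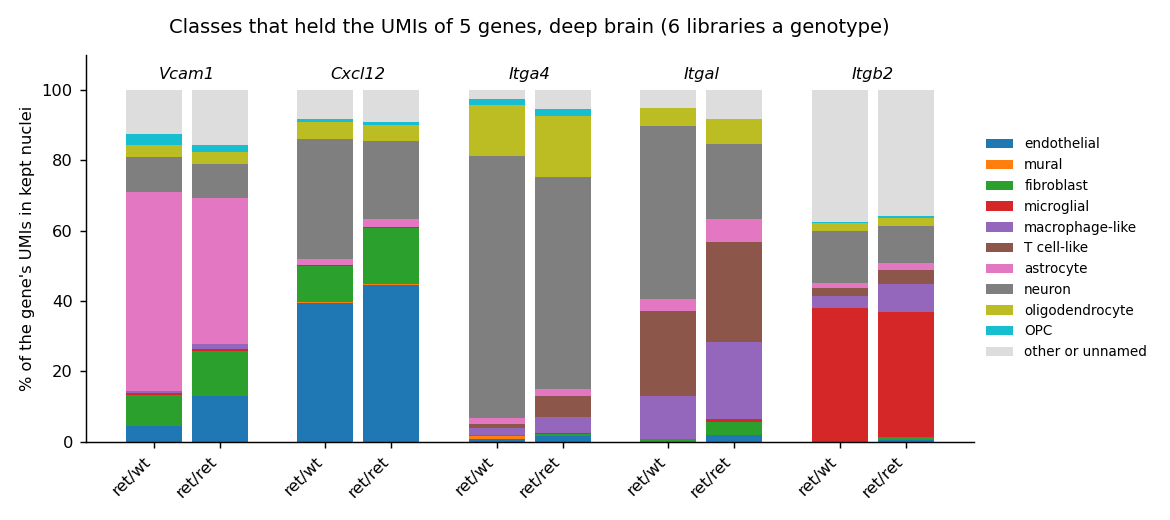
Share of the UMIs of 5 genes that lay in each class of nuclei, in percent of the UMIs of the gene over all kept nuclei of the deep brain, with 1 bar for the 6 control libraries and 1 for the 6 mutant libraries. Astrocytes held more UMIs of *Vcam1* than any other class (41.3% in mutants), neurons most of *Itga4*, endothelial nuclei more of *Cxcl12* than any other class (44.4% in mutants), and T cell-like nuclei 28.4% of *Itgal* in mutants. Light grey marks nuclei that were unnamed or that were left out of the microglia.

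*Icam1* over all nuclei of the deep brain was at 1.23 to 1.93 CPM in mutants (median 1.39) and 0.774 to 1.27 CPM in controls (median 0.991), with overlap of the lowest mutant and the highest control. Its log2 difference was 0.55 ± 0.14 (SE) with an adjusted p of 0.066 in edgeR. That p was 0.0283 with a block for the replicate number and 0.0404 without control 3. The labels state no pairing by that number, and equal numbers correlated at -0.21 to 0.54 between genotypes there. Microglia, again without the nuclei left out, held 28.7% of its UMIs in mutants and 31.4% in controls. Fibroblasts held 13.3% and 9.62%, and endothelial nuclei 6.07% and 5.34%. *Icam2* had a log2 difference of 0.76 ± 0.29 with an adjusted p of 0.243 in edgeR, and 65.1% and 61.8% of its UMIs lay in endothelial nuclei.

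*Cxcl12*, the chemokine of the vessel wall, lies at chr6:117168535-117181367 on the plus strand. Endothelial nuclei of the deep brain held 910.5 to 1760.0 CPM in mutants (median 1325) and 1134 to 2522 CPM in controls (median 1339). The groups overlapped, with means of 1293 ± 303 and 1644 ± 634 CPM (SD, n = 6) and a log2 difference of -0.33 ± 0.21 (SE), adjusted p = 0.635 in edgeR. A UMI was found in 54.7% of mutant and 53.1% of control endothelial nuclei. In the cortex the difference was 0.05 ± 0.48 with an adjusted p of 0.987 in edgeR. Fibroblasts of the deep brain held 122 to 215 CPM in mutants (median 201) and 109 to 214 CPM in controls (median 153), with an adjusted p of 0.961 in edgeR. Neurons held 637 UMIs in mutants and 1132 in controls, 1.79 and 3.05 CPM, with a log2 difference of -0.77 ± 0.26 and an adjusted p of 0.226 in edgeR (unadjusted p = 0.011). Mural nuclei of the deep brain held 12 UMIs of *Cxcl12* in mutants (168 CPM, 37 nuclei) and 15 in controls (63.9 CPM, 140 nuclei). Of the 12 UMIs 7 came from 1 nucleus, the only mural nucleus of mutant 6.

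The receptor *Cxcr4* (chr1:128588199-128592293, minus strand) gave 7 UMIs in T cell-like nuclei, 17 in macrophage-like nuclei and 6 in microglia of all libraries. Summed over the deep brain its log2 difference was -0.16 ± 0.23 with an adjusted p of 0.838 in edgeR. A change in the receptor of *Cxcl12* on leukocytes was not detectable at this depth.

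*Ccl5* (chr11:83525778-83530518, minus strand), a chemokine of activated T cells and natural killer cells, was read in 60 of the 167 T cell-like nuclei (35.9%) against 0.086% of oligodendrocytes. T cell-like nuclei of the deep brain held 55 UMIs in mutants (386 CPM) and 22 in controls (405 CPM), and those of the cortex 88 (1166 CPM) and 5 (383 CPM). Of the 88 UMIs in the mutant cortex 57 came from mutant 6. Most UMIs of *Ccl5* lay outside these nuclei, which held 88 of 225 in the mutant cortex. In the deep brain 70 neurons of mutants (0.199%) and 39 of controls (0.121%) held a UMI. In both genotypes neurons there held more UMIs of *Ccl5* than T cell-like nuclei did, at a far lower level. In all nuclei of the deep brain together *Ccl5* was at 0.159 to 0.716 CPM in mutants (median 0.442) and 0.0587 to 0.324 CPM in controls (median 0.162), a log2 difference of 1.31 ± 0.42 (SE) with an adjusted p of 0.147 in edgeR. In the cortex it was at 0.214 to 1.48 CPM in mutants (median 1.07, 225 UMIs) and 0 to 0.304 CPM in controls (median 0.109, 23 UMIs), and it was below the filter of the fit. Without the filter edgeR gave a log2 difference of 3.07 ± 0.56 (adjusted p = 0.0376), and without the 3 deepest libraries, where the gene passed the filter, 3.14 ± 0.52 (adjusted p = 0.0278). Over the 9 alternatives that tested it the adjusted p was 0.00356 to 0.113, under 0.05 in 3, and where the filter was kept the gene passed it through the mutants, so that these values are no independent support. Endothelial nuclei of the mutant cortex held 19 UMIs, all from 1 nucleus of mutant 6 that had 28014 UMIs, among them 20 of T cell markers and 920 of endothelial markers.

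The number of T cell-like nuclei differed between genotypes in the deep brain. They made up 0.1 to 0.206% of kept nuclei in mutants (median 0.139%, 11 to 21 nuclei) and 0 to 0.0796% in controls (median 0.0632%, 0 to 9 nuclei). Every mutant lay above every control. The means of 0.145 ± 0.0443% and 0.0483 ± 0.0342% (SD, n = 6) differed by 0.0965 percentage points, with p = 0.00216 in a two-sided exact permutation test over libraries, the smallest p that 6 against 6 libraries can give, or 0.00433 adjusted over the deep brain and the cortex. As a share of vascular and immune nuclei the difference was 1.73 percentage points (p = 0.00433, exact permutation test, 5 of 6 mutants above every control). Leaving out any 1 library gave a difference of 0.0843 to 0.105 points and p = 0.00433 each time in the exact permutation test. Because the groups did not overlap, that p could take no other value and adds no support. Neither the 10 genes nor the trafficking list described below entered the clustering, so that these genes did not define the nuclei counted.

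In the cortex T cell-like nuclei made up 0 to 0.245% of kept nuclei in mutants, with a median of 0.0569%, and 0 to 0.0665% in controls, whose median was 0%, and the groups overlapped. The kept nuclei of the cortex include many of no named class. Mutant 1 kept 9277 nuclei with a median of 814 UMIs, and mutant 6 kept 6930 with a median of 8054. These shares are therefore not comparable with those of the deep brain. The difference of 0.065 percentage points had p = 0.0974 in the exact permutation test. Mutants 5 and 6 gave 14 and 17 of the 38 mutant nuclei and control 5 gave 5 of the 7 control nuclei, and without these 3 deepest libraries the difference was 0.0176 points (p = 0.413, exact permutation test). Without mutant 6 it was 0.0327 points (p = 0.195), without mutant 1 0.0817 points (p = 0.0433) and without control 1 0.0746 points (p = 0.0476), all by the exact permutation test.

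**Figure D5:**
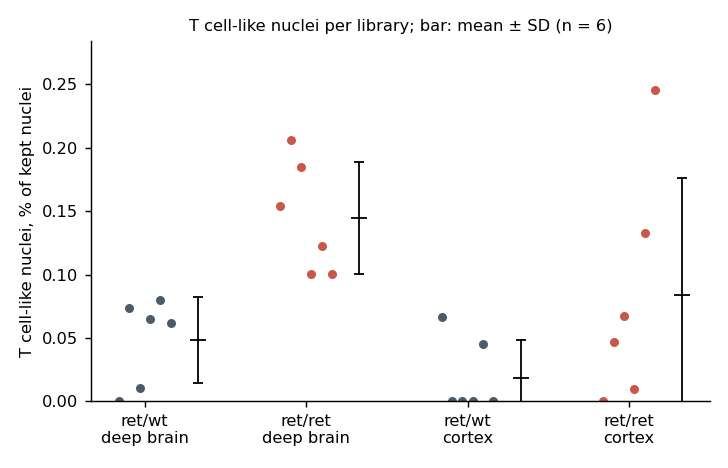
T cell-like nuclei as a percentage of kept nuclei in each of the 24 libraries, on a linear axis that starts at 0, with the mean and SD of the 6 libraries of a group beside the points. In the deep brain all mutants (0.1 to 0.206%) lie above all controls (0 to 0.0796%), and in the cortex the groups overlap and 2 mutants stand highest.

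Receptors of entry that did not name the T cell-like nuclei stood above their level in oligodendrocytes. The chemokine receptor *Cxcr6* was at 561 CPM in T cell-like nuclei and 0.484 CPM in oligodendrocytes, *Cxcr3* at 284 and 0.0639 CPM and *Selplg*, the ligand of P-selectin, at 435 and 3.42 CPM. *Selplg* is not particular to T cell-like nuclei, being among the leading genes of the main microglial cluster at resolution 0.2. *Ccr7*, a receptor of naive T cells, rested on 2 nuclei. *Cd4* was at 116 and 0.676 CPM and *Ncr1* of natural killer cells at 140.2 and 0.00913 CPM. *Cd8a* was among the markers that named these nuclei and is no result about them. By library, T cell-like nuclei of mutants in the deep brain held 28 to 69 UMIs of *Itga4*, 6 to 15 of *Itgal*, 3 to 10 of *Itgb2* and 0 to 24 of *Ccl5*.

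Over all nuclei of the cortex 0 of the 6 tested members were called between genotypes, where edgeR called 50 of 18171 genes (0.275%), and 2 of the 6 reached an unadjusted p under 0.05 as did 8.58% of all genes. With a block for the replicate number, taken as a pairing here by correlation alone, the count was 418 and still 0 members. *Itgal* was at 0.393 to 0.897 CPM in mutants (median 0.548) and 0.167 to 0.456 CPM in controls (median 0.293), a log2 difference of 0.99 ± 0.28 with an adjusted p of 0.206 in edgeR. *Itgb2* was at 1.63 to 3.76 CPM (median 2.93) and 1.19 to 2.38 CPM (median 2.04), a difference of 0.61 ± 0.23 with an adjusted p of 0.425 in edgeR. Both ranges overlapped, and for *Itgb2* the lowest mutant lay below the control median. These levels include the many cortical nuclei of no named class.

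Between regions of the controls 2 of 8 tested members were called, both lower in the deep brain, in a comparison where edgeR called 7472 of 20755 genes (36%, with 18.1% lower). *Cxcl12* was at 6.43 to 8.24 CPM in the deep brain and 8.49 to 15.0 CPM in the cortex, without overlap, and fell by 0.81 on the log2 scale (SE 0.13, adjusted p = 0.000374). *Itga4* was at 8.90 to 18.9 CPM in the deep brain and 15.5 to 21.6 CPM in the cortex, with overlap, and fell by 0.72 (SE 0.19, adjusted p = 0.010). Both rest on all nuclei, in which neurons held 34.1% of the *Cxcl12* and 74.5% of the *Itga4* UMIs in the deep brain of controls, and 5 of the 6 cortical libraries of controls, all but control 5, held fewer UMIs than any of their deep brain. In microglia of controls the deep brain stood lower than the cortex by log2 differences of -0.57 ± 0.23 for *Icam1* (adjusted p = 0.303) and -0.48 ± 0.19 for *Itgb2* (adjusted p = 0.281) in edgeR, which called 141 of 6210 genes (2.27%).

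A list of 70 further genes of leukocyte traffic, 69 of which are among the genes listed, was read beside the 10. Over all nuclei of the deep brain 51 were tested, 5 were higher and 1 lower in mutants at an adjusted p under 0.05 in edgeR, where 1.54% of all genes were called, of which the 5 with the largest difference are named, and the median log2 difference was 0.12 against -0.003 over all genes tested. *Ccl3*, a chemokine of activated microglia and macrophages, rose by 1.79 ± 0.26 (adjusted p = 0.00868), *Itgax*, the α chain of CD11c, by 1.67 ± 0.37 (0.0416), *Fyb*, an adaptor of integrin activation, by 0.54 ± 0.10 (0.0192) and *Itgam*, the α chain of CD11b that pairs with *Itgb2*, by 0.45 ± 0.09 (0.0339). *Cd34*, a sialomucin of endothelium and progenitors, fell by 1.29 (SE 0.22, adjusted p = 0.016). In the sum of all nuclei of the cortex 1 of 43 was called (0.275% of all genes): *Dock2*, a regulator of leukocyte migration, rose by 0.69 ± 0.11 (adjusted p = 0.0265). Between regions of the controls 8 of 48 were called as higher and 17 as lower in the deep brain, where 36% of all genes were called. Of these *Itgae*, the α chain that pairs with *Itgb7*, was higher by 1.12 ± 0.22 (adjusted p = 0.00122), and *Cd34* fell by 1.53 (SE 0.21, adjusted p = 0.000107), *Icam5*, an adhesion molecule of neurons, by 1.41 (SE 0.25, adjusted p = 0.000591), *Cxcl14*, a chemokine, by 1.34 (SE 0.19, adjusted p = 0.000121) and *Icam4* by 1.01 (SE 0.31, adjusted p = 0.0211). Among endothelial nuclei of the deep brain 17 of the list were tested and 0 called (1.66% of all genes), with 1 at an unadjusted p under 0.05, and the median difference was -0.04 against -0.01 over all genes. In endothelial nuclei of the cortex 1 of 13 was called (2.19% of all genes), *Jam2*, a junctional adhesion molecule, which fell by 1.61 (SE 0.37, adjusted p = 0.0337). In astrocytes 1 of 26 was called (3.47% of all genes): *Ackr3*, the scavenging receptor of CXCL12, fell by 0.70 (SE 0.18, adjusted p = 0.0382). In microglia of the deep brain 24 were tested and 0 called (0.125% of all genes), with 1 at an unadjusted p under 0.05, and in the cortex 20 and 0 (0.254%), with 2. In fibroblasts of the deep brain 0 of 15 were called (0% of all genes, and 0 of the list at an unadjusted p under 0.05), in macrophage-like nuclei 0 of 16 (1.39% of all genes, and 2 of the list at an unadjusted p under 0.05) and in neurons 1 of 44 (0.291% of all genes), *Cd34*, which fell by 2.2 (SE 0.34, adjusted p = 0.0282).

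The genes most like 3 of the members were sought over 15 combinations of class and group with at least 3 libraries, among 14456 genes, by Pearson's correlation of mean log2(CPM + 10). For *Vcam1* they were *Myof* (r = 0.991), *Adgrg6*, *Stom*, *Mcc* and *Sh3bp5* (0.951). For *Cxcl12* they were *Nkd1* (r = 0.994), *Itm2a*, *Wfdc1*, *Ltbp4* and *Hspa12b* (0.983), and for *Itgal* they included *Ikzf3* (r = 0.988), *Atp8b4*, *Gpr132* and *Clec2i* (0.986). The points share libraries and classes, and for *Itgal* the T cell-like nuclei of mutants are the only point of that class, so that these values are a description.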

How the data were processed

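Single nuclei of 12 mice were measured as 10x 5′ libraries, 1 per mouse and region. The authors ran Cell Ranger 5.0.1 on mm10 after bcl2fastq 2.20.0.422 and deposited raw UMI counts per gene and barcode for each library. The 10 genes and all gene lists were chosen with earlier results of these data known. Nuclei with over 500 and under 7000 genes and under 20% mitochondrial UMIs were kept. They were clustered per region without the 10 genes and the trafficking list (scanpy 1.11.5, 2000 variable genes, 20 components; Seurat 5.3.0, 20 neighbours, resolution 0.1), and the vascular and immune clusters were pooled and clustered again (30 components, resolution 0.4). A cluster got a name where at least 30% of a marker list stood over 2-fold higher in the pool and at least 50% against all nuclei, or at least 80% against all nuclei for 1 list only, and none where at least 60% of a list of another brain cell did. Microglial nuclei with a UMI of any of 4 genes of other cells (*Mrc1*, *Mbp*, *Aqp4* and *Rbfox3*) were left out, 1500 of 4767. Doublets were called with Scrublet in scanpy, which did not work in the cortex (0 to 46.8% called, against 4.20 to 7.94% in the deep brain), so that they were removed only in an alternative for the deep brain.

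Counts were summed per library and class. Libraries of at least 10 nuclei entered edgeR 4.0.16 (TMM, its filter on low counts, quasi-likelihood test, Benjamini-Hochberg threshold 0.05), fitted over all genes. T cell-like shares were compared with two-sided exact permutation tests over libraries (scipy 1.17.1). DESeq2 1.42.0, other scaling, no filter, other resolutions, a replicate block and leaving out each library were alternatives. The labels give each replicate as a separate mouse, and intervals of shares cover counting error only. The depth of a class sets its precision: 3 UMIs in the summed endothelial nuclei of the deep brain are 3.18 CPM in mutants and 3.55 CPM in controls. By labels and ages, a replicate number of a genotype is the same mouse in both regions. The correlation of deviations was -0.07 to 0.44 over 6 pairs of controls and does not itself show this. Main fits of region and of the interaction did not use this pairing, and the replicate block was their alternative. Between genotypes the numbers were taken to pair the samples where every pair exceeded 0.1, which held over all nuclei of the cortex (0.31 to 0.89). There 3 of 6 correlated best with their own number. The labels state no such pairing. The replicate block was also run as an alternative in fits where that limit was not met. By their ages mutant 5 matches control 6 (4 months 7 days) and mutant 6 matches control 5 (4 months 9 days). Named were the 10 genes in every class, in each fit up to 5 called genes of the trafficking list with the largest change, the 5 genes most like *Vcam1*, *Cxcl12* and *Itgal*, and the markers, except for some that are not reported here. Gene positions are from GENCODE M21 (GRCm38), whose overlapping opposite-strand genes could matter if strand were not used in counting.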

Additional observations from a re-analysis of the deposited data

Results flagged for a closer look

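Among 76 groups of 4 to 10 libraries checked for a library far from the others, 4 held one, and chance gives about 1 in 20, or 3.8. Among the 4 mutant libraries with at least 10 cortical fibroblasts, mutant 2 held the highest levels of both *Cxcl12* (582 CPM, the others' median being 183) and *Vcam1* (625 CPM, the others' median being 148). Mutant 3, below that limit with 9 fibroblasts, held 1099 CPM of *Vcam1* from 61 UMIs. In macrophage-like nuclei of the deep brain control 1 held 989 CPM of *Itga4*, against a median of 397 in the other 4 libraries. Over all nuclei of the deep brain control 4 held 0.230 CPM of *Icam2*, below a median of 0.312 in the other 5 controls. The genotype difference of *Vcam1* was higher by 1.95 on the log2 scale in endothelial nuclei than in astrocytes of the deep brain (p = 0.00866, or 0.0173 adjusted over 2 contrasts, two-sided exact permutation test, n = 6 each), a contrast chosen after these values had been seen.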

How the results depend on the processing

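Direction and call of the 10 genes were mostly kept: apart from leaving out libraries, 281 values kept both, 10 newly passed the threshold and 8 changed sign, and on leaving out 1 library 398 kept both, 5 newly passed and 28 changed sign. Among values other than those of the 10 genes, 4 became weaker under alternatives and 46 on leaving out 1 library. Whether single calls of the trafficking list were kept is not given here. The cause of these changes was not tested. The number of genes called moved more. With DESeq2 it was 270 in place of 50 over all nuclei of the cortex, 960 in place of 324 over those of the deep brain, and 1 and 2 in place of 0 in fibroblasts of the cortex and deep brain. Without the filter it was 77 over all nuclei of the cortex, 184 in place of 57 in endothelial nuclei of the deep brain, 14 and 78 in fibroblasts of the cortex and deep brain, 56 in place of 7 and 56 in place of 9 in microglia of the cortex and deep brain, and 2 in place of 0 for the microglial interaction. With the replicate block it was 418 over all nuclei of the cortex, 507 over those of the deep brain, 37 in cortical microglia and 1 in fibroblasts of the deep brain. With the 4-gene filter of microglia dropped it was 212 in place of 141 between regions of controls and 17 in the cortex, where it was 38 without the 3 deepest libraries.

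Leaving out 1 library gave 11 to 110 called genes over all nuclei of the cortex, 92 to 450 over those of the deep brain, 37 to 102 in endothelial nuclei, 212 to 748 in astrocytes, 0 to 0 and 0 to 2 in fibroblasts of the cortex and deep brain, and 3 to 20 and 7 to 12 in microglia of the cortex and deep brain. The difference of T cell-like shares was 0.0843 to 0.105 points in the deep brain and 0.0327 to 0.0817 in the cortex. With the replicate block its exact permutation p was 0.0313 and 0.156. The first is the smallest p that such pairs can give, and the labels state no pairing of mutants with controls.

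With the block the log2 difference was -0.00205 for *Vcam1* and -0.0032 for *Itga4* over all nuclei of the cortex, 0.00483 for *Itga4* in astrocytes, -0.0233 for *Vcam1* in cortical fibroblasts and -0.34 for *Cxcl12* in cortical endothelial nuclei. For *Cxcl12* in the last it was -0.0163 with DESeq2 and -0.0208 with RLE scaling, and for *Icam2* in the endothelial interaction it was -0.0296 at resolution 0.2. Leaving out 1 library gave ranges across 0 for *Itga4* in astrocytes (-0.20 to 0.22) and over all nuclei of the cortex (-0.11 to 0.10), *Vcam1* over all nuclei of the cortex (-0.0915 to 0.18) and deep brain (-0.14 to 0.0222), in neurons (-0.18 to 0.0402) and in cortical fibroblasts (-0.50 to 0.59), *Cxcl12* in cortical endothelial nuclei (-0.19 to 0.24) and fibroblasts (-0.30 to 0.49), and *Itgb2* in neurons (-0.0501 to 0.13) and macrophage-like nuclei (-0.0922 to 0.50). In the region comparison of controls the replicate block changed no call of the 10 genes.

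Doublet removal was not run in the cortex, between regions or for interactions. Fits of endothelial nuclei of the cortex and of mural nuclei with at least 10 nuclei per library could not be made, nor the endothelial comparison of regions in controls. Limits of at least 5 nuclei, the fits in astrocytes, neurons and macrophage-like nuclei, the removal of the 3 deepest libraries and the contrast of classes were chosen after seeing the data. Sparse genes (*Selp*, *Cxcr4* and, outside T cell-like nuclei, *Ccl5*) are limited by depth.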
